A study of Mus musculus with 5 samples.

Results

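The regions described here are 2057 binding sites of TLX that were called in mouse neural stem cells (NSC) and not in mouse brain tumor stem cells (BTSC), and that lie in acetylated chromatin at the ends of protein-coding genes. They are 27.6% of the 7458 TLX peaks of the NSC list. A peak was taken when it met no TLX peak of BTSC by at least 1 bp, when it met a region of H3K27ac in NSC by at least 1 bp, and when its summit lay within 1 kb of either end of a protein-coding gene. The first step kept 6282 peaks and the next 5781, of which 35.6% lay at a gene end. The sites were thus selected on the TLX calls of both cultures, on the H3K27ac calls of NSC and on position, and none of these is a finding about them.

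Chromatin immunoprecipitation with sequencing was done on 5 bulk cultures, with 1 library each. TLX was profiled with an antibody against the TY1 tag in BTSC that carried retroviral TLX-3xTY1 and in NSC that carried the same construct, so the sites are those of tagged TLX made from a vector. H3K27ac was profiled in BTSC and in NSC that were not transduced. The control was a culture with the empty vector MSCV-neo and no antibody, whose cells the labels describe no further; its peaks, if any were called, were not used. The protocol describes transduction and drug selection of primary NSC and applies its text to the BTSC samples as well, and the labels do not say how the BTSC arose. No TY1 precipitation from cells without the tag was used here, so TLX and whatever else the antibody may bind cannot be told apart. With 1 library a group no difference between cultures has a replicate check, and no p-value is given. Read numbers are unknown, so a site missing from the BTSC list is one that was not called at that library's depth. In bulk cultures, fewer cells with TLX at a site and less TLX per cell cannot be told apart.

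TLX, the product of Nr2e1, is a nuclear receptor with no known hormone. It keeps neural stem cells self-renewing, binds a core motif of the letters AAGTCA and is best known as a repressor that recruits histone deacetylases and the demethylase Kdm1a. Acetylation of lysine 27 of histone H3 marks active promoters and enhancers, and promoters of broadly used genes are often rich in the dinucleotide CpG and hold motifs of ETS factors, NRF1, NFY and SP factors. Gene ends here are the first and last base of a gene, so a site at the start of a gene is a promoter site.

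Sequence could be read where the summit fell inside a promoter listed by RefSeq for GRCm38.p6 (mm10), which spans 250 bases before to 50 after a start. This held for 530 of the 2057 sites. A listed start can differ from the first base of the gene, from which distances are counted elsewhere. Below are 100 bases around the TLX summit, read 5′ to 3′ along the strand of the gene. The first 4 are among the windows of highest q that hold the TLX core motif, in capitals as AAGTCA or its reverse complement TGACTT. They are shown because this is the motif that TLX itself is known to bind. They were chosen after the values had been seen, since none of the 8 sites among the strongest ones with a listed promoter at the summit had this motif there.

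Iqck chr7:118855661-118855760 (+): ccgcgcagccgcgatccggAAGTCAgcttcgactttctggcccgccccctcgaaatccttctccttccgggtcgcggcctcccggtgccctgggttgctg
Tom1l2 chr11:60353045-60353144 (-): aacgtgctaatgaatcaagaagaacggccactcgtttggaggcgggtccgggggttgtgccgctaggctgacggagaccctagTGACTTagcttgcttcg
Map9 chr3:82358081-82358180 (+): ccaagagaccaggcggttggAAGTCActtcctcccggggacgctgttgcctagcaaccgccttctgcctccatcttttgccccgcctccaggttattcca
Snrnp27 chr6:86684537-86684636 (-): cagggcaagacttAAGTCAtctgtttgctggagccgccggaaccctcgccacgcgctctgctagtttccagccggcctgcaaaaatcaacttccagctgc

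The TLX folds of these sites in NSC were 7.08 at Iqck, 6.31 at Tom1l2, 6.12 at Map9 and 5.55 at Snrnp27, all above the median of 4.4 over the 2057 sites. In the Iqck window the core shares its first letters with a CCGGAA, the core of the motif of ETS factors. The next 4 windows are among those of highest q that hold this ETS core, in capitals as CCGGAA or TTCCGG. They are shown because this motif was more frequent at the sites than the TLX core; it was taken up after the values had been seen.

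Fra10ac1 chr19:38224183-38224282 (-): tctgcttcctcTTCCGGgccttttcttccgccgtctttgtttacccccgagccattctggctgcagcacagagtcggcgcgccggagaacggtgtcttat
Fam161b chr12:84361976-84362075 (-): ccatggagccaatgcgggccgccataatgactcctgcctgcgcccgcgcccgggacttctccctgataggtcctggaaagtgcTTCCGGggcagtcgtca
Stx16 chr2:174076171-174076270 (+): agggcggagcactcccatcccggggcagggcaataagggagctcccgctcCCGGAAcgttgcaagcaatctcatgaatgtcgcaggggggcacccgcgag
Tomm70a chr16:57121650-57121749 (+): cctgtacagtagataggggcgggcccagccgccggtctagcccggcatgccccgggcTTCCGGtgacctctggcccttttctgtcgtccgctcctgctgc

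The TLX folds here were 11.9 at Fra10ac1, 8.39 at Fam161b, 8.22 at Stx16 and 8.03 at Tomm70a. None of these 4 windows holds AAGTCA on either strand. H3K27ac was called at all 8 sites in both cultures, in regions of 685 to 3893 bp in BTSC and 1178 to 3474 bp in NSC. A match of letters is a description, not a proven binding site.

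CpG-rich promoters made up most of those at the sites. Of the 530 promoters, 86.6% (95% interval 83.4 to 89.4) had a GC share of at least 50% and a CpG ratio of at least 0.6, where the ratio is observed CpG over that expected from C and G. The share was 87.4% (79.0 to 93.3) for 95 promoters with a TLX site of both cultures, 73.2% (72.3 to 74.2) for 8579 promoters in NSC H3K27ac with no TLX peak, and 45.1% for all 21238 listed promoters. Over all 2005 listed promoters with a start within 1 kb of a site, the CpG-rich share was 82.1% (80.3 to 83.8). All intervals are exact Clopper-Pearson intervals that cover counting error only, and promoters are not replicates of a culture. The median GC share was 64.0% at the sites, 61.7% at acetylated promoters with no TLX peak and 56.3% over all promoters.

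The ETS core stood in 230 of the 530 promoters at the sites, which is 43.4% (39.1 to 47.7). It stood in 45.3% (35.0 to 55.8) of those at sites of both cultures, in 29.1% (28.2 to 30.1) of acetylated promoters with no TLX peak and in 18.7% of all promoters, both strands searched. The difference from acetylated promoters with no TLX peak was also seen within composition classes. Among CpG-rich promoters the shares were 44.7% (40.1 to 49.3) at the sites and 33.4% (32.2 to 34.6) without TLX, and among the others 35.2% (24.2 to 47.5) and 17.5% (16.0 to 19.1). Over all 2005 listed promoters with a start within 1 kb of a site, whether or not the summit lay in them, the share was 32.4% (30.4 to 34.5), nearer to that without TLX. Within the 335 windows of 100 bases that fit inside a listed promoter the core occurred in 22.1%, against 12.2% at the same place in acetylated promoters with no TLX peak.

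The TLX core motif stood in 75 of the 530 promoters, which is 14.2% (11.3 to 17.4). At sites of both cultures it stood in 21 of 95, 22.1% (14.2 to 31.8), so the intervals of both groups overlap. Acetylated promoters with no TLX peak had it in 9.07% (8.47 to 9.7), promoters outside NSC H3K27ac in 16.6% and all promoters in 13.2%. Over all 2005 listed promoters with a start within 1 kb of a site it was 11.7% (10.3 to 13.2). Both shares were above that of acetylated promoters without TLX, and the 13.2% of promoters in general lay within the interval of either. In the 100 bases at the summit it was 14 of 335, 4.18% (2.3 to 6.91). The 2.94% at the same place without TLX lay within this interval. So did the 4.51% of windows of 100 bases over all promoters. Only 2 of the 75 promoters had a core motif sharing bases with an ETS core.

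Both motifs had their highest share at the strongest sites, though most of the intervals overlapped. When the 530 sites were ranked by q and cut into 3 groups of 176, 177 and 177, the TLX core motif stood in 20.5% (14.8 to 27.2), 10.7% (6.59 to 16.3) and 11.3% (7.04 to 16.9), from the strongest group to the weakest. For the ETS core the shares were 50.0% (42.4 to 57.6), 46.3% (38.8 to 54.0) and 33.9%. Of 14 other motifs searched, 5 are given here. For 3 of promoters, the shares at the sites were level with or under those of acetylated promoters without TLX. The SP box GGGCGG stood in 67.9% at the sites and 67.9% of acetylated promoters with no TLX peak, the NFY box CCAAT in 32.5% (28.5 to 36.6) and 39.8% (38.8 to 40.9), and the NRF1 motif in 7.74% (5.61 to 10.3) and 12.4% (11.7 to 13.1). The core of most other nuclear receptors, AGGTCA, stood in 12.8% (10.1 to 16.0) at the sites and 10.4% (9.79 to 11.1) without TLX, and the core of SOX factors, ACAAAG, in 13.4% (10.6 to 16.6) and 13.0% (12.3 to 13.8).

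**Figure D1:**
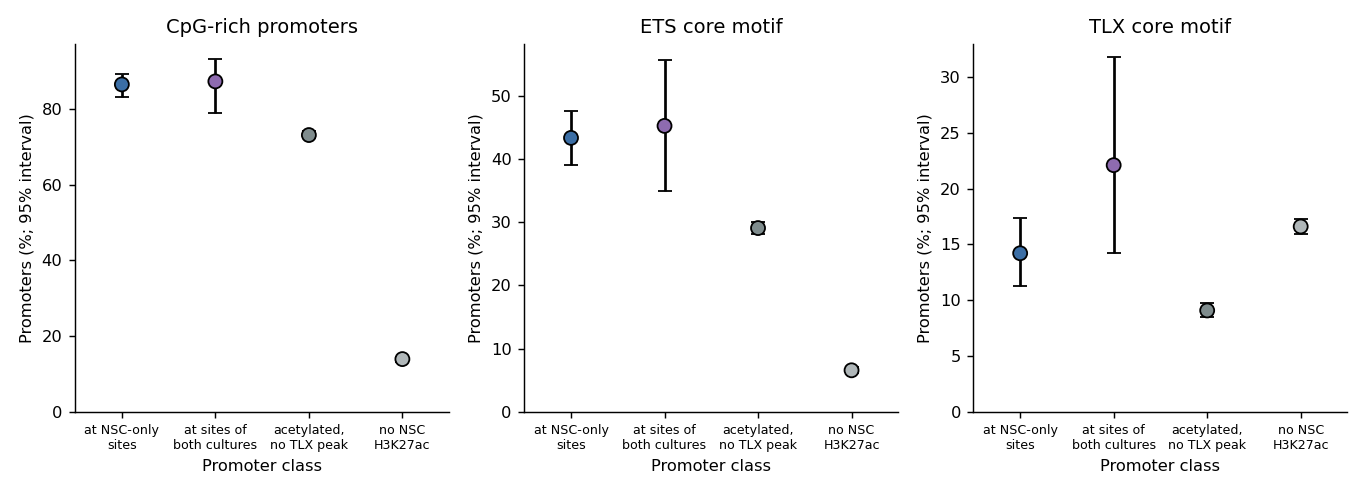
Share of promoters (percent, with 95% Clopper-Pearson intervals) that are CpG-rich, hold the ETS core or hold the TLX core motif, for promoters at the sites, at TLX sites of both cultures, acetylated in NSC with no TLX peak, and outside NSC H3K27ac. The ETS core is at 43.4% at the sites, 29.1% at acetylated promoters without TLX and 6.55% outside H3K27ac, while the TLX core motif is at 14.2% at the sites, 9.07% at acetylated promoters without TLX and 16.6% outside H3K27ac.

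Nearly all sites with a known strand lay at gene starts. The selection took either end, but it required H3K27ac, which marks active promoters. The share at starts is thus not independent of the selection, and it was not computed for H3K27ac regions without TLX. A strand was known for the genes at 1684 sites, and 1633 of these, 97.0% (96.0 to 97.7), had the summit within 1 kb of a start, against 216 of 227, 95.2% (91.5 to 97.6), for sites of both cultures. A further 51 sites were classed at the last base of a gene, of which 2 lay within 1 kb of another listed start, and for 373 no strand was listed. Counted from the first base of the gene, summits sat mostly inside it. At or downstream of this start lay 73.4% (71.1 to 75.5) of the 1633, with a median of 180 bp downstream. The quartiles were 14 bp upstream and 396 bp downstream. For sites of both cultures the share was 67.1% (60.4 to 73.4) and the median 87 bp. Within 500 bp of the start lay 80.2% of the summits and within 100 bp 24.1%. Listed starts can differ from the first base, and the side can then change. The Fra10ac1 summit stood at 399 bp from the first base and at -80 bp from a listed start. The Iqck summit stood at -42 and -41 bp. How all sites would fall around listed starts was not tested.

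**Figure D2:**
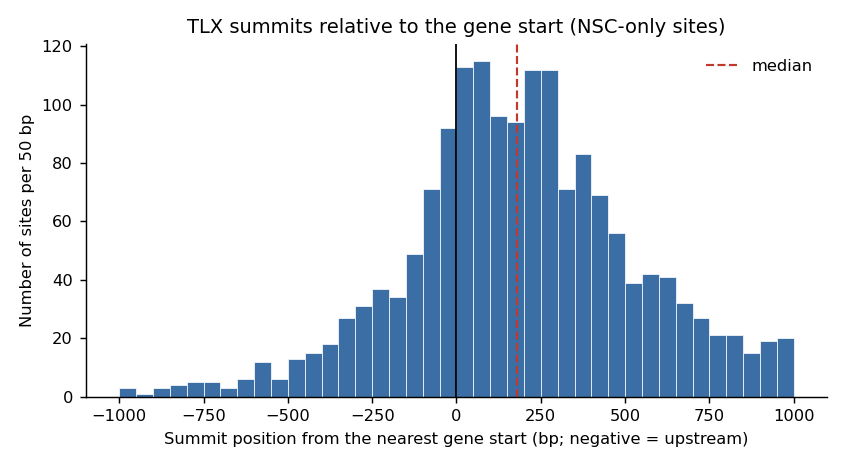
Number of sites per 50 bp by the distance of the TLX summit from the nearest gene start, for the 1633 sites at a start. The start is the first base of the gene, which can differ from a listed start. Negative values are upstream, the solid line is the start and the dashed line the median. Most summits lie between the start and 500 bp downstream, and the median is 180 bp.

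Some sites lay between neighbouring genes. Of the 2057, 296 (14.4%, 12.9 to 16.0) were within 1 kb of ends of 2 or more protein-coding genes, against 53 of 276 (19.2%, 14.7 to 24.4) for sites of both cultures and 15.5% (14.7 to 16.4) for midpoints of NSC H3K27ac regions with no TLX peak. Starts on both strands, the layout of a bidirectional promoter, were found at 9.04% (7.84 to 10.4), against 13.8% (9.93 to 18.4) and 8.45% (7.78 to 9.16). The summits at the edge of the 1 kb limit were those at Ubp1 (991 bp) and Wasf1 (995 bp) just inside and at Paip1 and Tcf7l2 (1001 bp each) just outside, with TLX folds of 3.2, 3.25, 4.4 and 4.4.

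The 51 sites at the last base of a gene lay at genes of varied roles, and no share of neural genes among them was computed. Sox2, Sox21 and Nr2f2 are named as members of the gene lists. Sox2, the stem cell factor, had a site 433 bp from its last base with a TLX fold of 4.02, inside an H3K27ac region of 27036 bp in BTSC and 27340 bp in NSC. Sox21, a repressor of the same family, had one of fold 3.92 at 890 bp, and Nr2f2, a nuclear receptor gene, one of fold 4.59 at 839 bp. The strongest of these sites were at Ung, which removes uracil from DNA, and at Fhl3, a LIM protein, with a fold of 6.88 each.

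The sites were mostly modest in strength within the NSC list. The fold, which is the authors' enrichment over the peak caller's background, had a median of 4.4 with quartiles of 3.87 and 5.12 and ran from 2.72 to 11.9. The median was 5.93 for 276 sites of both cultures at gene ends, 4.72 for 2227 NSC-only sites inside genes and 4.97 for 1497 between genes, all in NSC H3K27ac. In the decile of the NSC list with the highest q stood 30 of the sites (1.46%), against 68 (24.6%) of the sites of both cultures at gene ends. By deciles of q, the sites made up 4.03% of the strongest peaks and 44.9% of the weakest. The BTSC list held 1436 peaks, and with the NSC list reduced to its 1436 strongest, 104 sites at 121 genes were left.

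**Figure D3:**
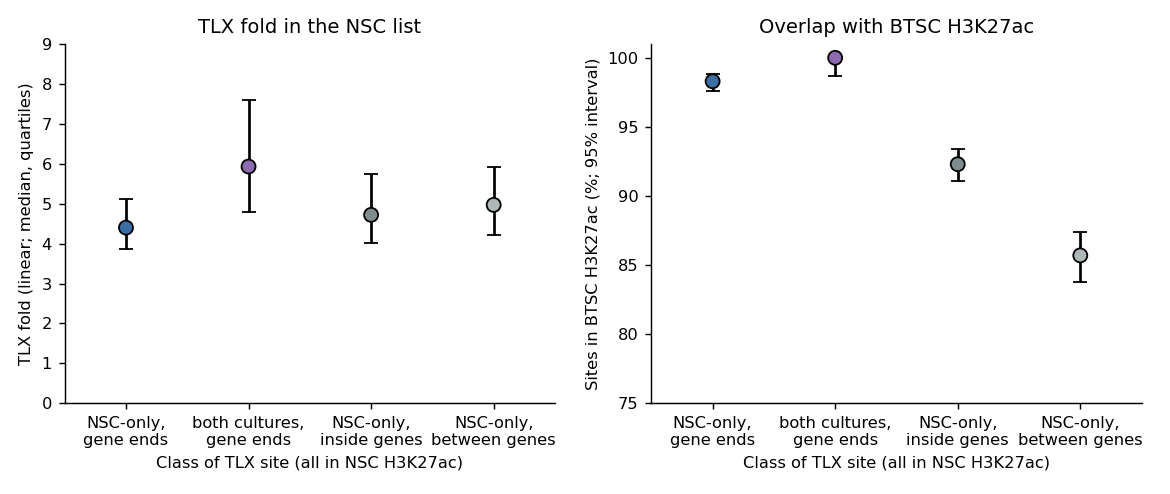
Left, TLX fold in the NSC list (points are medians, bars quartiles); right, share of sites overlapping H3K27ac of BTSC (percent, 95% interval; the axis starts at 75), for 4 classes of TLX site that all lie in NSC H3K27ac. The NSC-only sites at gene ends have the lowest median fold, 4.4, and 98.3% of them lie in BTSC H3K27ac.

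The strongest sites lay at genes of varied roles. The site at the start of Ifngr1 (chr10:19591588-19592332), which encodes a subunit of the interferon gamma receptor, had a TLX fold of 11.9 and a −log10 q of 43.6. Fra10ac1, a nuclear protein gene, had a fold of 11.9, and Nwd1, which encodes a protein with a NACHT domain, one of 11.7. These 3 sites ranked 160, 163 and 181 among all NSC peaks, so none of the sites was among the 100 strongest.

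Further down stood Ube2g1, which encodes a ubiquitin-conjugating enzyme, with a fold of 10.1 in an H3K27ac region of 2483 bp in BTSC and 2294 bp in NSC. Lrp6 (chr6:134565615-134567491), the co-receptor of Wnt ligands, had a fold of 9.56 in regions of 2106 bp in BTSC and 2834 bp in NSC. The pair Scamp3 and Clk2, a carrier protein of secretion and a kinase of splicing factors, shared a site of fold 8.99, as high as that at Ap3m2, a subunit of the adaptor AP-3. Glial genes were in this group too: Bcan, encoding the brain proteoglycan brevican, had a fold of 8.36 in regions of 6760 bp in BTSC and 9228 bp in NSC, and Gjc3, a connexin of myelinating glia, had 8.61 in regions of 6048 bp in BTSC and 13642 bp in NSC.

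A fold of 8.61 was tied over several sites. They include Tbl1xr1, which encodes a subunit of the NCOR corepressor complex, Virma, a subunit of the writer of RNA methylation at adenosine, Kmt5a, a histone H4 methyltransferase, Pcbp1, an RNA-binding protein, and Nicn1, a protein of tubulin modification. The site at Skiv2l and Nelfe, for RNA decay and for pausing of RNA polymerase, the site at Crat and Dolpp1 and the site at Nmnat1 and Lzic also had this fold. Fam161b and Coq6 (8.39), Clip1, a protein of growing microtubule ends (8.41), and Kdm5a and Ccdc77 (7.59) complete the 20 sites of highest q. Of these 20 sites, the site at Ifngr1 had no H3K27ac region called in BTSC and the other 19 had one in both cultures.

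H3K27ac was called in BTSC at nearly all of these sites, although no TLX peak was. Of the 2057 sites 2022 overlapped a BTSC region, 98.3% (97.6 to 98.8). The share was 100% (98.7 to 100) for the 276 sites of both cultures at gene ends, 92.3% (91.1 to 93.4) for NSC-only sites inside genes and 85.7% (83.8 to 87.4) for those between genes, and 93.7% over all NSC TLX peaks in NSC H3K27ac. The BTSC H3K27ac list was the 1 list not used in the selection. Where both cultures had a region, its median width was 2320 bp in BTSC and 2252 bp in NSC. It was wider in BTSC than in NSC at 53.9% (51.7 to 56.0) of sites, against 68.1% (62.3 to 73.6) for sites of both cultures. The share wider in BTSC was 43.1% for NSC-only sites inside genes and 38.0% for those between genes. Over all NSC TLX peaks in NSC H3K27ac it was 49.4% (48.1 to 50.6). A BTSC TLX peak lay within 1 kb of 11 sites and within 10 kb of 50 (2.43%), and the median gap was 466009 bp. These counts are not independent of the selection, which left out peaks that meet a BTSC TLX peak. The gap was not computed for other peaks or gene ends.

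The 35 sites with no BTSC H3K27ac lay in NSC regions that were narrower and weaker at the median, with exceptions such as Six3. Their NSC regions had a median width of 1288 bp and a median fold of 4.57, against 2252 bp and 13.5 for the other 2022 sites, while the median TLX fold was 4.4 in both. None of them had a BTSC region within 1 kb, and the median gap to the nearest was 79662 bp. At Ifngr1 the NSC region was 763 bp wide with an H3K27ac fold of 6.06. Creb5, a transcription factor of the CREB family, had a TLX fold of 6.37 in a region of 1418 bp, Papln, an extracellular matrix protein gene, 6.12 in 2785 bp, and Ddost, a subunit of the enzyme of N-glycosylation, 5.55 in 1743 bp.

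The others of the 10 strongest without BTSC H3K27ac were at Pdzrn4 (TLX fold 5.55), Ilvbl (5.35), Sema3c (5.35), Sybu (5.16), the pair Cgas and Mto1 (5.12) and Dlgap1 (5.0). Sema3c encodes a secreted guidance cue, Cgas the sensor of cytosolic DNA, Mto1 an enzyme of mitochondrial tRNA and Dlgap1 a scaffold of synapses. 2 further genes were picked after their values had been seen. Six3, a homeobox factor of the anterior forebrain, had a pair of sites near its last base with folds of 4.63 and 3.63 in an NSC region of 15419 bp. Foxp2, a forkhead factor of neurons, had a site of fold 4.97 in a region of 1922 bp with an H3K27ac fold of 12.5. Of the 35 sites, 7 lay on chromosome 6 and 1 on chromosome 1.

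Sites were more frequent in strongly acetylated regions at gene ends. Of 8523 NSC H3K27ac regions with their midpoint within 1 kb of a gene end, 1714 (20.1%, 19.3 to 21.0) held a site. Ordered by H3K27ac fold, the share was 3.64% (2.49 to 5.13) in the lowest decile of regions and 51.1% (47.7 to 54.5) in the highest. Ordered by width, it was 3.99% (2.78 to 5.53) in the narrowest decile and 34.0% (30.8 to 37.3) in the widest. The share of regions with a site of both cultures rose as well. It went from 0.235% to 8.21% by fold and from 0.352% to 6.33% by width, so the rise is not particular to the NSC-only sites. Regions with a site had a median H3K27ac fold of 13.2 and a median width of 2026 bp, against 7.92 and 1595 bp without one. The H3K27ac list of NSC was part of the selection, so this is a description of where in that list the sites stand.

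**Figure D4:**
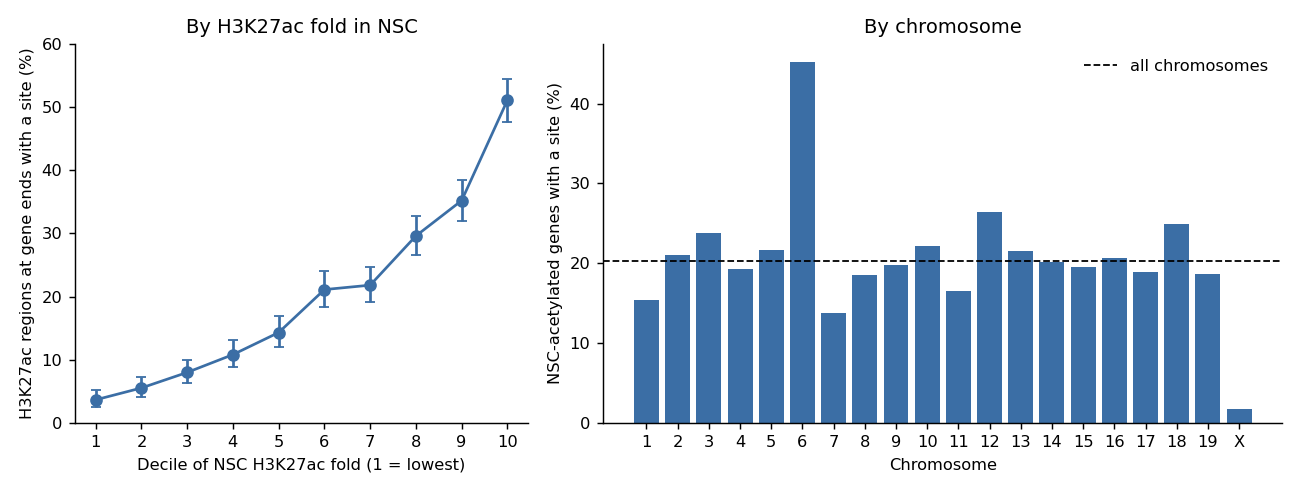
Left, share of NSC H3K27ac regions at gene ends that hold a site (percent, 95% interval) by deciles of H3K27ac fold; right, share of protein-coding genes with NSC H3K27ac at an end that have a site, by chromosome, with the share over all chromosomes as a dashed line. The share runs from 3.64% to 51.1% over the deciles and is 45.2% on chromosome 6 and 1.7% on chromosome X.

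The sites lay at 2324 protein-coding genes, which is 10.6% of 21887 and 20.3% of the 11435 with NSC H3K27ac at an end. Most of these genes had a single site; 33 had a pair and 0 had 3. Crat, Tbl1xr1, Dpp9, Commd3 and Cecr2 were the genes with a pair whose stronger site had the highest q. H3K27ac of BTSC lay at an end of 2290 of the 2324 genes (98.5%, 98.0 to 99.0), against 94.1% (93.6 to 94.5) of the 9111 acetylated genes with no site. A BTSC TLX peak in the gene or within 10 kb was found for 163 genes with a site (7.01%, 6.01 to 8.13), against 8.3% (7.74 to 8.88) of those with no site and 8.04% over both. The selection shaped this comparison. The sites were taken for meeting no BTSC TLX peak, while genes with only sites of both cultures count among those with no site. At these 163 genes, TLX was thus called in BTSC, but at another place. A site of both cultures lay at an end of 7 of the genes as well, namely Ctdnep1, Jag1, Sox2, Sox21, Tmem129, Ubr4 and Zfp668. A further NSC TLX peak lay in or within 10 kb of 483 genes (20.8%).

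The chromosomes differed in how many acetylated genes had a site. On chromosome 6 these were 251 of 555 (45.2%), on chromosome 1 98 of 637 (15.4%) and on X 6 of 352 (1.7%), against 13.8% to 26.4% on the other autosomes. The lists themselves were uneven there. Chromosome 6 had 75 TLX peaks in BTSC and 769 in NSC, and 1609 H3K27ac regions in BTSC and 1997 in NSC. Chromosome 1 had 297 TLX peaks in BTSC and 461 in NSC, and 2662 H3K27ac regions in BTSC and 1965 in NSC. On X both TLX lists were short, with 4 peaks in BTSC and 40 in NSC. Without chromosomes 1 and 6, 1975 of 10243 acetylated genes had a site (19.3%). What part these chromosomes have in the counts of gene lists was not tested, and counts without them are given beside each list that loses 2 or more genes with a site.

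Genes of the Wnt pathway had sites from ligand to nuclear factor. Of 23 members with NSC H3K27ac at an end, 11 had a site, against 20.3% over all acetylated genes, and 7 of 19 without chromosomes 1 and 6. The ligand gene Wnt7a (chr6:91410623-91411478), a reported TLX target, had a TLX fold of 5.55 in H3K27ac of 3108 bp in BTSC and 2932 bp in NSC. Lrp6 is given above. Of the receptors of the Frizzled family, Fzd3 had a fold of 6.5, Fzd8 4.97, Fzd1 and Fzd2 4.59 each and Fzd7 3.44, and Lgr4, a receptor of R-spondins, had 5.16. In the destruction complex Gsk3b had 4.59 and Apc 3.82, and Tcf7l1, the repressor among the TCF factors, had 4.59. A BTSC TLX peak lay within 10 kb of Apc and Tcf7l1 and of none of the others with a site, and 23 of the 26 listed members had H3K27ac at an end in BTSC, as many as in NSC. Wnt5a was the member with a site of both cultures.

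Hedgehog genes with a site were 4 of 11. They were the receptor Ptch1 (fold 4.02), the transducer Smo (4.97), the co-receptor Cdon (4.59) and the nuclear factor Gli3 (5.16). In the Notch pathway 4 of 19 had one, near the share over all acetylated genes: the receptor Notch3 (5.74), the ligand Jag1 (3.44) and the target repressors Hes5 (4.78) and Hes1 (4.03). Hes1 and Jag1 also had a BTSC TLX peak within 10 kb. Among named members of the other lists, so had Gli3, Smad3, Igf1r, Rorb, Slc1a2, Olig1, Sox2, Sox21, Cdkn1b and Rac1. The BMP and TGF-beta list had 5 of 24, with the ligand Bmp7 (5.35), the receptor Acvr2a (3.63), the transducers Smad4 (5.74) and Smad3 (2.95) and the corepressor Ski (4.59). At Bmp7 the H3K27ac region was 3903 bp wide in BTSC and 10969 bp in NSC, and at Ski 10086 bp in BTSC and 4283 bp in NSC.

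Receptor tyrosine kinase signalling had 8 of 30 acetylated members with a site, and 6 of 27 without chromosomes 1 and 6. Among them the phosphatase Dusp6, which ends ERK signalling, had a fold of 4.59 and the feedback inhibitors Spry4 and Spry1 had 4.21 and 3.82. The lipid kinase Pik3ca had 4.02 and the receptor Igf1r 3.82. Hippo pathway members with a site were 5 of 18. These were Ajuba (6.69), the targets Ccn1 (4.59) and Amotl2 (4.02), the coactivator Wwtr1 (3.82) and the kinase activator Mob1a (3.23).

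Partners of TLX were among the genes with a site. Of the TLX cofactor list 6 of 16 acetylated members had one, with none on chromosomes 1 and 6. They were the corepressor Rcor2 (fold 5.93), which works with Kdm1a, Kdm1a itself (4.4), Ncor1 (4.21), the deacetylase gene Hdac2 (3.03) and the nuclear receptors Nr2f2 (4.59) and Nr2f1 (4.4). Rcor2 stood in wide, strong regions of 6760 bp in BTSC and 5971 bp in NSC, and its TLX summit was 82 bp downstream of the start. Among nuclear receptors 7 of 25 had a site. Beside Nr2f1 and Nr2f2 these were Nr2f6 (5.16), Nr2c1 (4.21), Rorb (4.09), Rora (4.02) and Nr2c2 (3.82), of which Nr2c1 and Nr2c2 are the testicular receptors.

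Of reported TLX targets, 3 of 11 had a site, and 1 of 8 without chromosomes 1 and 6. Beside Wnt7a these were Tet3, a DNA demethylase gene (fold 4.78, 948 bp downstream of the start), and Ccnd1, encoding cyclin D1 (3.82, in H3K27ac of 8025 bp in BTSC and 15440 bp in NSC). Nr2e1 had H3K27ac at an end in both cultures and no site; within 10 kb of it a TLX peak was called in BTSC and none in NSC.

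The labelled cell types were checked by H3K27ac at marker genes. Of the neural stem cell markers, H3K27ac lay at an end of 15 of 18 in BTSC and 16 of 18 in NSC; of microglia markers at 1 of 12 in BTSC and 1 of 12 in NSC, and of endothelial markers at 0 of 12 in BTSC and 1 of 12 in NSC. Astrocyte markers had it at 12 of 14 in BTSC and 11 of 14 in NSC, so the marks do not set stem cells apart from astrocytes. Markers of the oligodendrocyte lineage had it at 8 of 14 in BTSC and 7 of 14 in NSC. Neuron markers had it at 4 of 16 in BTSC and 11 of 16 in NSC. Over all protein-coding genes the NSC share was 52.2%, so in NSC neuron markers were not set apart by the marks either. Sites were found at 6 of the 16 acetylated stem cell markers. Fabp7, a fatty acid carrier of radial glia, led with a fold of 6.5 at 36 bp before its start, in regions of 16071 bp in BTSC and 14959 bp in NSC. Vim, the intermediate filament vimentin, had 4.02 and Cd9, a tetraspanin, 3.44; Hes1, Hes5 and Sox2 are given above.

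None of the 16 neuron markers had a site, although 11 of them were acetylated at an end in NSC. Astrocyte markers had 3 of 11, at Gja1, the connexin of astrocytes (fold 5.35), Ndrg2 (4.78) and the glutamate transporter Slc1a2 (3.63), and the oligodendrocyte lineage had 2 of 7, at Olig1 (5.0) and Cnp (4.59). The Cnp site lay 676 bp from the last base of the gene, and its region was 2849 bp wide in BTSC and 7048 bp in NSC. Of Sox factors 3 of 13 had a site, with Sox5 (6.12) beside Sox2 and Sox21, and of immediate early genes 3 of 17, at Fosl2 (5.55), Jun (4.97) and Myc (3.44).

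Lists of general cell functions fell on both sides of the share over all acetylated genes. Chromatin modifiers had 13 of 36, and 10 of 31 without chromosomes 1 and 6. The Polycomb genes among them were Ezh2 (fold 5.99), which writes H3K27 methylation, its partner Eed (5.16), and the genes of the Polycomb ubiquitin ligase Rnf2 (5.96), Bmi1 (5.35) and Ring1 (4.02). Ep300, which writes H3K27ac, had 5.16, as had Setd2, and Tet1 and Dnmt3b, an eraser and a writer of DNA methylation, had 4.59 each. Dot1l had 4.97, Chd8 4.09, and Tet3 and Hdac2 are given above.

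Splicing and mRNA processing had 12 of 33, and 9 of 28 without chromosomes 1 and 6. Hnrnpa2b1, an RNA-binding protein, had a fold of 6.71 in regions of 5491 bp in BTSC and 5527 bp in NSC, Snrpb, a core protein of the spliceosome, had 5.35, and Luc7l2 had 4.52. The other 9 ran from 3.2 to 4.21. Translation factors had 7 of 21, among them the initiation factor Eif3a (4.78), while the site of fold 5.55 counted for the elongation factor Eef2 lay 478 bp from its last base, at the start of its neighbour Dapk3, and ribosomal proteins 7 of 27, led by Rps18 (8.03), Rpl27 (6.69) and Rpl3 (5.16). Cytoskeleton genes had 9 of 26, and 7 of 24 without these chromosomes, led by the GTPases Rhob (5.16) and Rac1 (4.78) and by Tpm4 (4.59), a tropomyosin. Proteasome and ubiquitin genes had 7 of 23, and 5 of 20 without them, among them Cul1 (7.22), a ubiquitin ligase scaffold, and Psmb2 and Psmb5 (5.74 each), subunits of the proteasome core.

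Cell cycle regulators had 7 of 29. The pocket protein gene Rbl1 had a fold of 6.69, the inhibitor Cdkn1b 4.59 and the kinase Cdk1 4.4, and the inhibitors Cdkn2c and Cdkn2d had 4.21 and 3.44. Replication and mitosis had 3 of 25, at Aurka (4.78), Rrm2 (4.02) and Pcna (3.44), the p53 pathway and DNA repair 3 of 22, among them Parp1 (5.09) and Gadd45a (4.78), and chaperones 3 of 24, at Dnajb6 (5.16), Keap1 (4.21) and Hsp90ab1 (3.44). These 3 shares were the lowest of the lists with any site, and the p53 list had 1 of 20 without chromosomes 1 and 6. The respiratory chain had 4 of 22, led by Ndufa9 (5.81), cholesterol and fatty acid synthesis 4 of 22, led by the desaturase gene Scd1 (6.76), glycolysis and hypoxia 5 of 19, led by Aldoc (5.16), and autophagy 4 of 26, led by Atg5 (5.93). Without chromosomes 1 and 6 the respiratory chain had 2 of 17, glycolysis and hypoxia 3 of 15 and autophagy 2 of 22. The sites at Rps18, Hnrnpa2b1, Aurka and Pcna lay nearer to the start of a neighbouring gene, namely Vps52, Cbx3, Cstf1 and Cds2. With at most 36 acetylated genes a list, 1 gene moves a share by several percentage points, and nothing is called particular to a list from these counts.

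**Figure D5:**
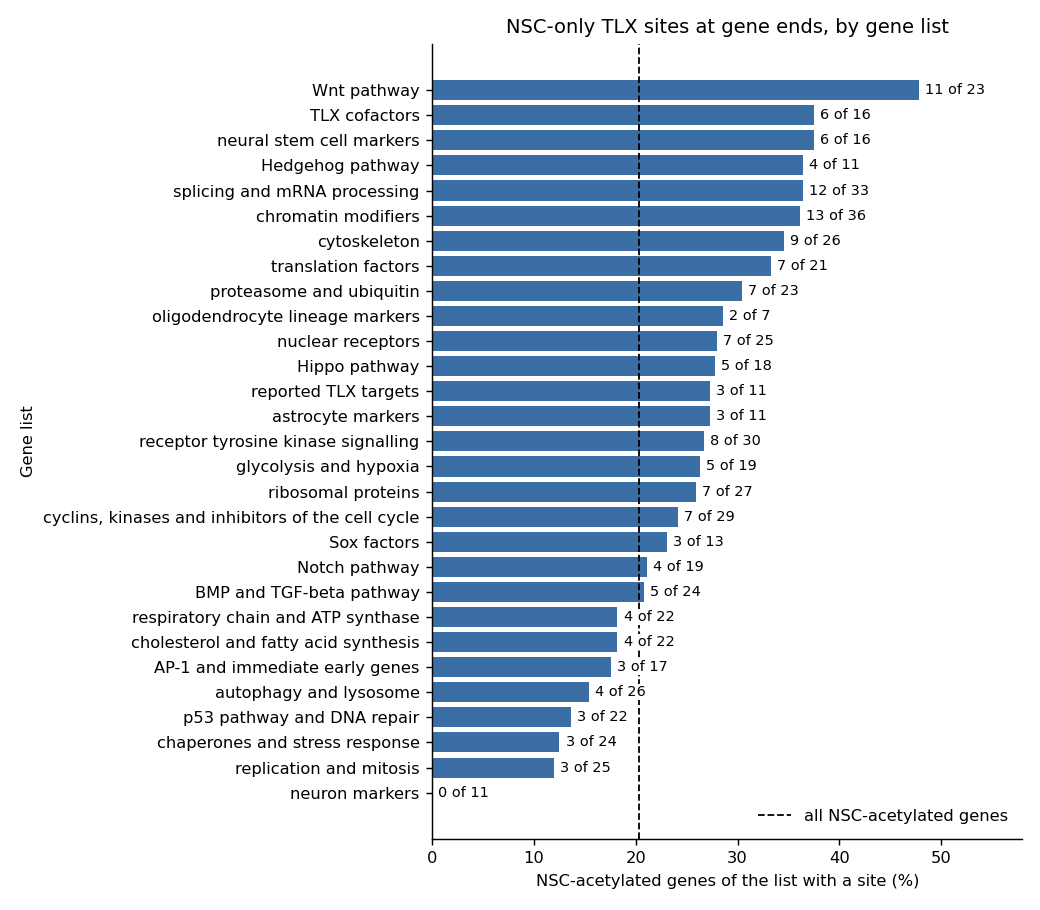
Share of the NSC-acetylated genes of each list that have a site (percent; the counts stand beside the bars), for lists with at least 7 acetylated genes, with the share over all acetylated genes, 20.3%, as a dashed line. The Wnt list stands at the top with 11 of 23 and the neuron list at the bottom with 0 of 11.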

How the data were processed

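ChIP-seq peak lists of 4 libraries were used, TLX and H3K27ac in BTSC and in NSC. Per the submitters' processing notes, the authors used bcl2fastq 2.17.1.14, Bowtie and ChIPseeker with build mm10; the peak caller is not given in the sources used here. Each list was called on 1 library. The deposited values per peak are a fold (a linear ratio), −log10 p and q values and a score; fold and q describe, rank or filter peaks within their own list, and the score was not used for results. Depth is unknown.

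From these lists, overlaps of at least 1 bp, distances to gene ends and exact 95% intervals were computed with Python 3.11.15, pandas 2.3.3 and scipy 1.17.1. The overlap, distance and motif functions were tested on simulated data, and the computation of the 95% intervals was not. Genes are the 21887 protein-coding genes of RefSeq for GRCm38.p6 without those of the mitochondrion; a strand was known for the 17492 that have a listed promoter or start. Motifs were searched on both strands of listed promoters, which match 1895 of the 2324 genes with a site. No genome sequence was used here. The 32 gene lists hold 720 entries, of which 716 were found. The members, lists and motifs were chosen with earlier results of these data known. Named genes are the 20 sites of highest q, list members with a site, the 10 strongest sites without BTSC H3K27ac, 5 of the 33 genes that have a pair of sites, taken by the q of the stronger site, the sites at the distance limit and Nr2e1; a few of them are not reported here but stay in the list counts. Alternatives changed the q limit, the windows, the overlap rules, the length of the NSC list, the chromosomes and the gene set; the ETS core and the list counts without chromosomes 1 and 6 were added once the data were known.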

Additional observations from a re-analysis of the deposited data

How the results depend on the processing

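Over 12 alternatives, 72 of 91 results stayed within their interval or within 1.5 times their count, and 19 moved. The length of the NSC list mattered most. Reduced to as many strongest peaks as the BTSC list, it left 104 sites at 121 genes. Of these sites, 99.0% met BTSC H3K27ac and 16.3% lay at ends of 2 or more genes. Only 42 of them had a listed promoter at the summit. Of these promoters, 78.6% (63.2 to 89.7) were CpG-rich, 26.2% (13.9 to 42.0) held the TLX core motif and 54.8% (38.7 to 70.2) the ETS core. Each of these intervals holds the share given above for the full set of sites. Sites at 2 or more genes were 12.2% with a window of 500 bp, 18.6% with 2.5 kb and 25.1% with all genes of the table, and the share at starts was 97.8%, 95% and 95.6%. BTSC H3K27ac was met by 97.6% with H3K27ac regions of −log10 q of at least 5 and by 97.4% with all genes, which gave 83.0% CpG-rich promoters. In 100 bases at the summit, 79.1% were CpG-rich, 4.18% held the TLX core motif and 22.1% the ETS core, over the 335 sites whose window fits inside a listed promoter; window and set of sites change together there, and the cause was not tested. No paired analysis was possible because each group has 1 library. Depth limits every statement on a missing peak.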
